A study of Homo sapiens with 2 samples.

Results

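The splicing factor and hnRNP genes described here are the 66 genes, of the 12353 genes with a value, whose symbols begin with SRSF, HNRNP, SNRP, SF3A, SF3B, PRPF or U2AF. They were taken by symbol, and this choice was made with earlier results of these data known. RefSeq lists 74 coding genes with such symbols, of which 65 had a value, and the additional member, PRPF4B, stands in RefSeq under another symbol. The 9 without a value were SRSF8, SRSF10, SRSF12, SF3B6, HNRNPA1L3, HNRNPCL1, HNRNPCL2, HNRNPCL3 and HNRNPCL4. The symbols also match 212 pseudogenes and 8 long noncoding RNA genes in RefSeq, none of which had a value.

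The measurement was global run-on sequencing (GRO-seq) of BJ cells, an established line of human skin fibroblasts, in which polymerases halted on isolated nuclei extend their RNA with a brominated nucleotide and the labelled RNA is pulled down and sequenced. The cells were untreated and grown with 10% serum, and all of them belong to 1 group with 2 biological replicates, called library a and library b because the column letters carry no replicate number. Levels are FPKM, fragments per kilobase scaled to library size. Which length was used for each gene, exons or the whole gene, was not given, and this limits every comparison between genes. The levels report transcription before splicing, not mature mRNA or protein, and the read depth behind them is unknown. With a single group no test between conditions could be made, and errors are SDs over the 2 libraries. All 10 fibroblast markers examined had values, led by COL1A1 (649 ± 48.1) and VIM (539 ± 9.28), with DCN lowest at 7.34 ± 0.495, below the median gene. None of the 3 endothelial and 4 leukocyte markers had a value. Of the epithelial markers 1 of 5 had a value, CDH1 at 1.49 ± 0.0141, and of the melanocyte markers 1 of 3, MLANA at 4.53 ± 0.750. Of the neuronal markers 2 of 3 had values, SYP at 19.3 ± 1.93 and RBFOX3 at 4.06 ± 0.141.

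Introns are removed by the spliceosome, which assembles on each transcript from small nuclear ribonucleoproteins (snRNPs). Most of these snRNPs consist of a small nuclear RNA bound by a ring of Sm proteins and by proteins particular to that particle. The U2AF heterodimer reads the end of the intron, the SF3A and SF3B complexes hold the U2 snRNP on the branch point, and the PRPF proteins, named after yeast pre-mRNA processing mutants, act in the tri-snRNP and in the catalytic core. SR proteins, which carry repeats of arginine and serine, mostly favour the use of nearby splice sites, and hnRNPs coat nascent RNA and often oppose them. Many SR protein and hnRNP genes limit their own output by splicing in an exon that exposes the mRNA to decay, a step that follows the one measured here.

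The upstream sequences of 9 members are shown first, as examples picked for holding short promoter motifs whose shares by class were not tested. They are the 150 bases before the RefSeq start of each gene, on GRCh38.p14, while the FPKM values were made on hg19 and use no coordinate from this table. SRSF3 lies at chr6:36594212-36594361 (plus strand), HNRNPAB at chr5:178204383-178204532 (plus), HNRNPA2B1 at chr7:26200747-26200896 (minus) and PRPF38B at chr1:108692160-108692309 (plus). In these 4 windows the capitals mark TATAAA or CCAAT, the letters of the TATA box and of the box bound by NF-Y, on either strand. Capitals read ATTGG where CCAAT lies on the other strand.
SRSF3: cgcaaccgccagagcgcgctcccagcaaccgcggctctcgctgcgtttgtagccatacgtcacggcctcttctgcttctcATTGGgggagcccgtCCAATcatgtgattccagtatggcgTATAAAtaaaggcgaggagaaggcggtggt
HNRNPAB: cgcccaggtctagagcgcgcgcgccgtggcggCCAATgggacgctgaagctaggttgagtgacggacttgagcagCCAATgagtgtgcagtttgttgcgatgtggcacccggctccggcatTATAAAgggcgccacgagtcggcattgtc
HNRNPA2B1: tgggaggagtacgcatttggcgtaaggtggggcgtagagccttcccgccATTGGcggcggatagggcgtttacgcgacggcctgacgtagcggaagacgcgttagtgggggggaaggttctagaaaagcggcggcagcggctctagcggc
PRPF38B: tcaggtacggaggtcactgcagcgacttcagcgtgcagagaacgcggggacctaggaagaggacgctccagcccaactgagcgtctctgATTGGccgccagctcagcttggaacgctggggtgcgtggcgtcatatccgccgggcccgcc

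The other 5 belong to the snRNP, SF3 and U2AF genes and hold CCGGAAG, a site of ETS factors, or its reverse complement CTTCCGG. SNRPB lies at chr20:2470790-2470939 (minus), SNRPA1 at chr15:101295249-101295398 (minus), SF3B2 at chr11:66052214-66052363 (plus), SF3B4 at chr1:149927804-149927953 (minus) and U2AF2 at chr19:55654885-55655034 (plus). Capitals also mark GGGCGG or CCGCCC, the GC box bound by SP1, and in SNRPA1 an ATTGG.
SNRPB: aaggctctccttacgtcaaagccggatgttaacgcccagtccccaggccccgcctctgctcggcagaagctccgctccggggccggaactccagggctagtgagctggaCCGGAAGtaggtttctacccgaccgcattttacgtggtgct
SNRPA1: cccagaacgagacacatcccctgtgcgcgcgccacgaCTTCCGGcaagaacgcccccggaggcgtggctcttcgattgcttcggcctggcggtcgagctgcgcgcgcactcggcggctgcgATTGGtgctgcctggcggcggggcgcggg
SF3B2: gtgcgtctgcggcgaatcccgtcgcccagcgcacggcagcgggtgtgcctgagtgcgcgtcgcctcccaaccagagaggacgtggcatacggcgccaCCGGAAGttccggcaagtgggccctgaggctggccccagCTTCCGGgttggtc
SF3B4: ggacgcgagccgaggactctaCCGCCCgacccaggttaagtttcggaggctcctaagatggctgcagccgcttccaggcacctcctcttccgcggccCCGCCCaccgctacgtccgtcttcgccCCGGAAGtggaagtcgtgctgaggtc
U2AF2: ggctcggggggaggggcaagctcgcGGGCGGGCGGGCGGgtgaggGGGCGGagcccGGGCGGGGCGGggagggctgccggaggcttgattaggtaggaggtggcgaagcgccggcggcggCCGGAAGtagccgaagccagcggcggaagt

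The splicing genes stood well above the typical gene. Their median FPKM was 39.9 ± 0.262, which is 3.41 times the median gene (11.7), and 60 of the 66 lay above that median. Of the members 46 exceeded it more than 2-fold, against 23.1% of all genes. A total of 23 exceeded FPKM 50, against 6.96% of all genes, and 32 belonged to the top 10% of genes. HNRNPDL and SRSF3 were the 2 members in the top 1%. RefSeq lists 5 pseudogenes named after each, and both are among the 25 members with copies or overlaps left out in a comparison below. The 6 members below the median gene were HNRNPA1L2, PRPF4B, SF3A2, SNRPB2, SNRPF and SNRPN.

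Among the classes, hnRNPs and SR proteins had the highest medians and PRPF genes the lowest. The median FPKM was 56.9 ± 0.346 for 21 hnRNP genes, 53.2 ± 0.884 for 9 SR protein genes, 41.6 ± 0.605 for 12 snRNP protein genes, 34.3 ± 4.79 for 11 SF3A, SF3B and U2AF genes and 20.4 ± 0.198 for 13 PRPF genes. The snRNP median lies above both single-library medians (39.8 and 38.9), since the sixth gene in order is SNRPE in one library and SNRPD3 in the other. More than 2 times the median gene was reached by 9 of 9 SR, 18 of 21 hnRNP, 8 of 12 snRNP, 7 of 11 SF3A, SF3B and U2AF, and 4 of 13 PRPF genes. FPKM 50 was exceeded by 11 hnRNP and 5 SR genes, and by 0 of 13 PRPF genes, whose highest value was 43.1. Over all genes, 23.1% exceeded 2 times the median gene and 6.96% exceeded FPKM 50. With 13 genes, the PRPF counts are near those shares.

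**Figure D1:**
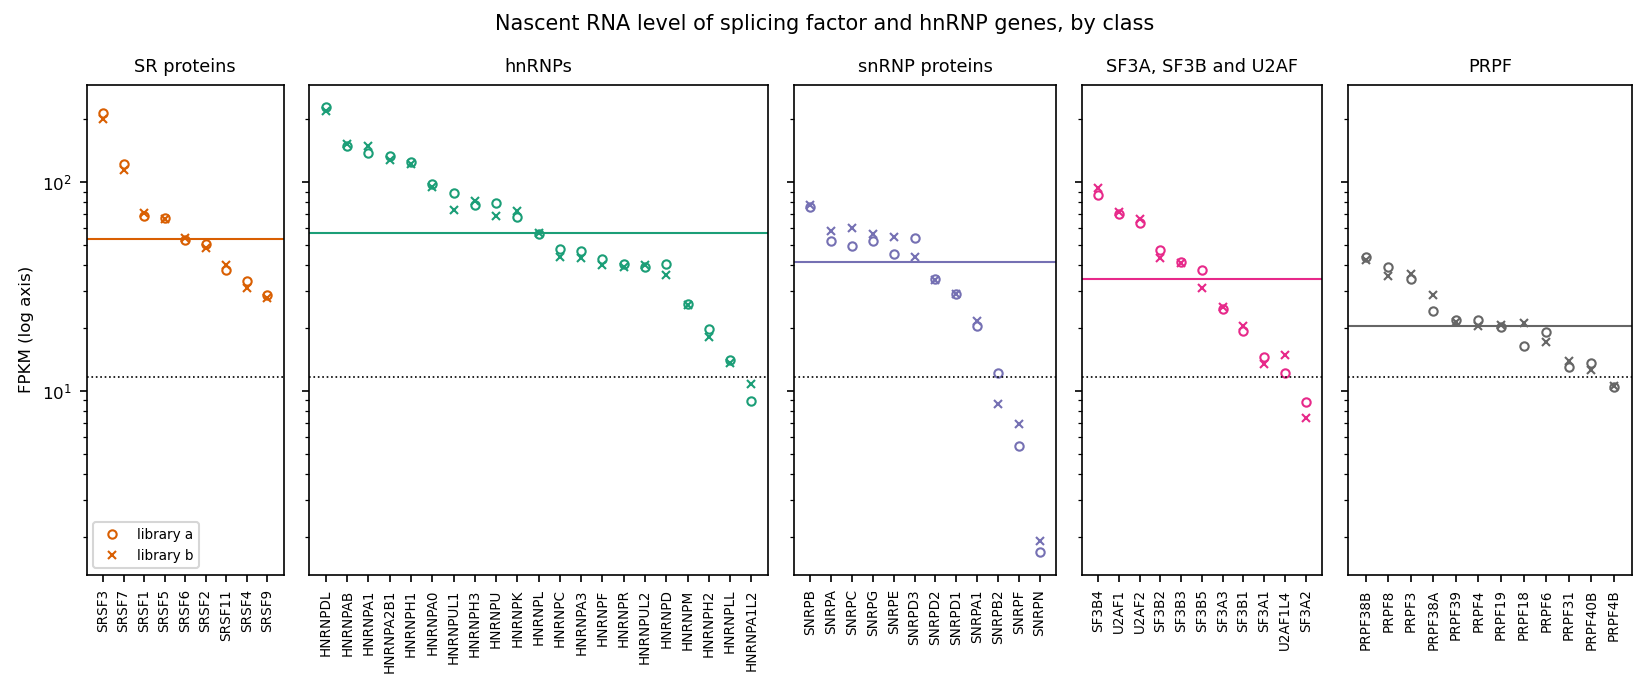
FPKM on a log axis for 65 of the 66 members, in 5 panels by class, with circles for library a and crosses for library b. The coloured line is the median over all members of the class and the dotted line the median of all genes (11.7). SR and hnRNP genes reach above 200, PRPF genes end at 43.1, and the snRNP panel runs down to SNRPN at 1.80.

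Set side by side on the log2(FPKM + 0.1) scale, the SR median stood 1.38 ± 0.0100 above the PRPF median, a 2.60-fold difference of levels, and the hnRNP median 1.47 ± 0.00514 above it, or 2.78-fold. Of the 117 pairs of an SR with a PRPF gene, the SR gene was higher in 94.0%, and of the 273 pairs of an hnRNP with a PRPF gene, the hnRNP gene was higher in 86.1%. SR proteins and hnRNPs themselves were close, with a log2 difference of medians of -0.10 (SR less hnRNP) and the SR gene higher in 48.1% of 189 pairs. That difference turned to 0.69 when 25 members with many pseudogenes or an overlapping coding gene were left out, and to 0.11 with geometric means in place of medians. The snRNP median was 1.00 ± 0.0355 above the PRPF median, more than in either single library (0.95 in a and 0.90 in b). This difference became 0.48 without the same 25 members and 0.29 with geometric means. The snRNP median was only 0.25 ± 0.180 above the median of the SF3A, SF3B and U2AF genes, and this became -0.37 and -0.25.

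SRSF3, which encodes one of the smallest SR proteins, (ENSG00000112081) led its class, with 214.91 in library a and 200.07 in b. SRSF7, its closest relative, followed at 122.14 and 114.08. SRSF1, the prototype of the family, stood at 68.93 and 71.16, and SRSF5 at 67.23 and 66.47. The ranges of the libraries overlapped for none of the 8 neighbouring pairs in the order of SR genes, which continued with SRSF6 (52.59 and 53.84), SRSF2 (50.24 and 48.45), SRSF11 (38.00 and 40.28), SRSF4 (33.76 and 31.23) and SRSF9 (28.69 and 27.74). The class thus spanned a 7.35-fold range of levels, and its lowest gene still exceeded 2 times the median gene in both libraries.

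Within SR subfamilies the relatives were unequal. SRSF3 exceeded SRSF7 by a log2 ratio of 0.81 ± 0.00337. SRSF1 exceeded SRSF9, which shares its domain layout, by 1.31 ± 0.0667. Among the long-tailed relatives SRSF4 stood below SRSF5 (log2 ratio -1.04 ± 0.0676) and below SRSF6 (-0.71 ± 0.103). The annotated span of SRSF4 overlaps MECR, and that of SRSF9 overlaps GATC. SRSF2, whose annotated span overlaps MFSD11 and holds the microRNA gene MIR636, could not be set against SRSF8, and SRSF10 not against SRSF12, since these had no value.

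The hnRNP genes spanned a 22.7-fold range. HNRNPDL (ENSG00000152795), a relative of the AU-rich element binding protein HNRNPD, was the highest member at 229.61 and 219.58. HNRNPAB, of the same subfamily, whose span overlaps PHYKPL, stood at 148.60 and 152.58, and HNRNPD itself at 40.45 and 35.92. HNRNPD thus lay 5.88-fold below HNRNPDL (log2 ratio -2.56 ± 0.0753) and 3.94-fold below HNRNPAB (-1.98 ± 0.148).

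HNRNPA1, an abundant hnRNP that often promotes exon skipping, was at 138.39 and 148.79, and its relative HNRNPA2B1 at 132.88 and 127.01. Their log2 ratio of 0.14 ± 0.120 was within 2 SD, and it was the only one of 18 pairs with values for which this was so. RefSeq lists 75 pseudogenes named after HNRNPA1, and the treatment of reads that fit several places was not given in the sources used here, so its level is uncertain. HNRNPA3, with 17 such pseudogenes, stood 3.18-fold lower at 46.85 and 43.29, and the retrocopy HNRNPA1L2 was the lowest hnRNP gene at 8.93 and 10.82. HNRNPA0, an intronless member of the same family, was at 97.47 and 94.69.

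In the F/H group, whose proteins bind runs of G, HNRNPH1 (124.88 and 122.39) stood 6.49-fold above HNRNPH2 (19.75 and 18.20) and 2.97-fold above HNRNPF (42.80 and 40.23). HNRNPH3 lay between at 77.82 and 80.87, and its span overlaps PBLD and RUFY2. The span of HNRNPH2 overlaps RPL36A-HNRNPH2, and that of HNRNPU, described next, overlaps LOC124904588. HNRNPU, a nuclear scaffold protein, was at 78.99 and 68.67, near its relative HNRNPUL1 at 88.44 and 73.52 (log2 ratio -0.13 ± 0.0456), and both were lower in library b. HNRNPUL2 was 2.03-fold below HNRNPUL1, at 39.35 and 40.15. HNRNPL, which binds CA repeats, stood at 56.66 and 57.15, 4.09-fold above HNRNPLL (14.05 and 13.60), the second lowest of the class. Of the remaining hnRNP genes, HNRNPK was at 70.5 ± 3.28, HNRNPC at 45.9 ± 2.94, HNRNPR at 40.0 ± 0.933 and HNRNPM at 25.9 ± 0.148. HNRNPK has 5 named pseudogenes in RefSeq and HNRNPC 9. In the order of hnRNP genes, 12 of 20 neighbouring pairs had libraries that did not overlap, and the other 8 cannot be ranked.

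**Figure D2:**
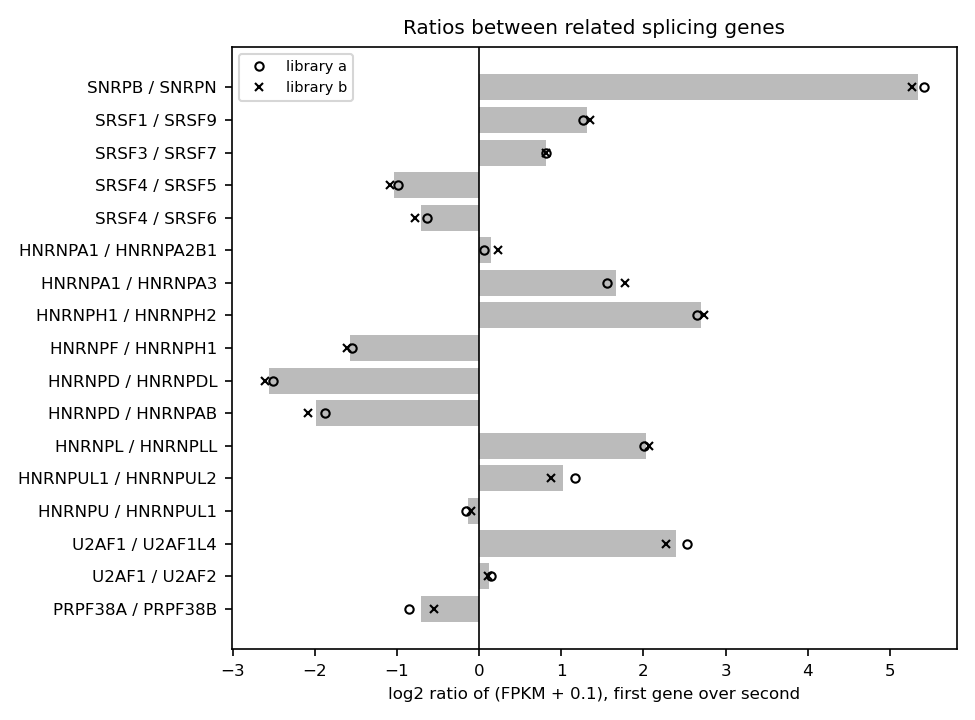
Log2 ratio of (FPKM + 0.1) between related genes, with a bar for the mean of the libraries, a circle for library a and a cross for library b. The ratio had the same sign in both libraries for all 17 pairs drawn, and 11 were at least 2-fold apart, from SNRPB over SNRPN at 5.35 to HNRNPD over HNRNPDL at -2.56.

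The Sm ring holds 1 copy of each of its proteins, yet the levels of their genes were not equal. SNRPB (ENSG00000125835), which encodes SmB and whose span holds the small RNA gene SNORD119, was highest at 75.87 and 77.73. SNRPG stood at 52.32 and 56.19, SNRPE at 45.09 and 54.43, and SNRPD3 at 54.13 and 43.99, so that the libraries put SNRPE and SNRPD3 in opposite orders. SNRPD2 (34.50 and 33.89) and SNRPD1 (29.08 and 28.94) were lower and tightly measured. SNRPF was far below the rest of the ring at 5.43 and 6.96, 12.4-fold under SNRPB. RefSeq lists 20 pseudogenes named after SNRPG, 11 after SNRPE and 4 after SNRPF, and what this does to their values was not tested.

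SNRPN (ENSG00000128739), an imprinted gene that encodes SmN, the form of SmB found mainly in brain, was the lowest of all members at 1.68 and 1.91. SNRPB exceeded it 40.7-fold (log2 ratio 5.35 ± 0.0993). Its annotated span also covers SNURF, so reads of these genes cannot be told apart.

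Among the 4 members with SNRP symbols whose proteins are particular to one snRNP, the U1 genes were higher than the U2 genes. SNRPA (U1-A) was at 52.40 and 58.46 and SNRPC (U1-C) at 49.56 and 60.31. SNRPA1 (U2-A') was at 20.39 and 21.54 and SNRPB2 (U2-B''), the partner it binds, at 12.18 and 8.69. SNRPA and SNRPC each exceeded SNRPA1 and SNRPB2 in both libraries. This does not extend to U1 and U2 genes with other symbols, since LUC7L, a U1-associated gene, stood at 18.86 and 14.30, below SNRPA1, and SF3B4, described next, above SNRPA and SNRPC. SNRPC has 20 named pseudogenes in RefSeq.

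The genes of the U2AF heterodimer were nearly level. U2AF1, whose product contacts the AG at the intron end, stood at 70.25 and 71.86, and U2AF2, whose product binds the pyrimidine tract, at 63.72 and 66.70, a ratio of 1.09. The related U2AF1L4 was 5.28-fold below U2AF1, at 12.11 and 14.79.

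SF3B genes had a median of 41.2 ± 0.184 and SF3A genes one of 14.0 ± 0.757. SF3B4 was highest at 86.89 and 93.97, followed by SF3B2 (47.43 and 43.26), SF3B3 (41.30 and 41.04) and SF3B5 (37.71 and 30.94). SF3B1, the large subunit that clamps the branch point helix and is recurrently mutated in blood cancers, was the lowest of these at 19.36 and 20.39. The 5 SF3B genes therefore spanned 4.55-fold. SF3A3 stood at 24.66 and 25.32, SF3A1 at 14.49 and 13.42 and SF3A2 at 8.85 and 7.43, and the library ranges of these 3 did not overlap. The annotated span of SF3A1 overlaps CCDC157.

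PRPF38B was the highest PRPF gene at 43.86 and 42.24, 1.63-fold above PRPF38A (24.21 and 28.79). PRPF8, the scaffold of the catalytic centre, stood at 39.13 and 35.57, and PRPF3, a tri-snRNP protein, at 34.39 and 36.46. PRPF4, its partner in the U4/U6 particle, was lower at 21.86 and 20.47. PRPF19, the ubiquitin ligase of the complex named after it, was at 20.30 and 20.58, PRPF6, the bridging protein of the tri-snRNP, at 19.17 and 17.20, and PRPF31 at 13.02 and 13.93. PRPF40B, a relative of a yeast U1 snRNP protein, was at 13.53 and 12.55. PRPF4B, a kinase, was lowest at 10.45 and 10.50. PRPF39 and PRPF18 were at 21.7 ± 0.332 and 18.7 ± 3.30. The annotated spans of PRPF38A, PRPF39, PRPF18 and PRPF40B overlap other coding genes. The class spanned only 4.11-fold, and 6 of its 12 neighbouring pairs overlapped between libraries.

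The libraries measured the members closely. The median member differed 1.07-fold between them, against 1.10-fold for all genes, and 3 of 66 members differed by more than 25%, against 14.5% of all genes. These were SNRPB2, higher in library a (1.40-fold), and PRPF18 and SNRPF, higher in library b (both 1.28-fold). Such differences were rarer among high genes in general. They were seen in 4.14% of all genes above 2 times the median gene and in 0 of the 46 members there. The closeness is therefore not shown to be particular to the members. The next largest difference was that of SNRPD3, 1.23-fold higher in library a. With differences centred on the median of all genes, U2AF1L4 and SNRPC came next instead, both higher in library b by 0.30 on the log2 scale.

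Relative to the median shift of all genes, 33 members were lower and 33 higher in library b, against 50% lower among all genes. By class, 6 of 9 SR and 13 of 21 hnRNP genes were lower in library b, while 9 of 12 snRNP genes were higher. The median log2 differences were -0.03, -0.03 and 0.11. All these shifts are between replicates of 1 condition.

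**Figure D3:**
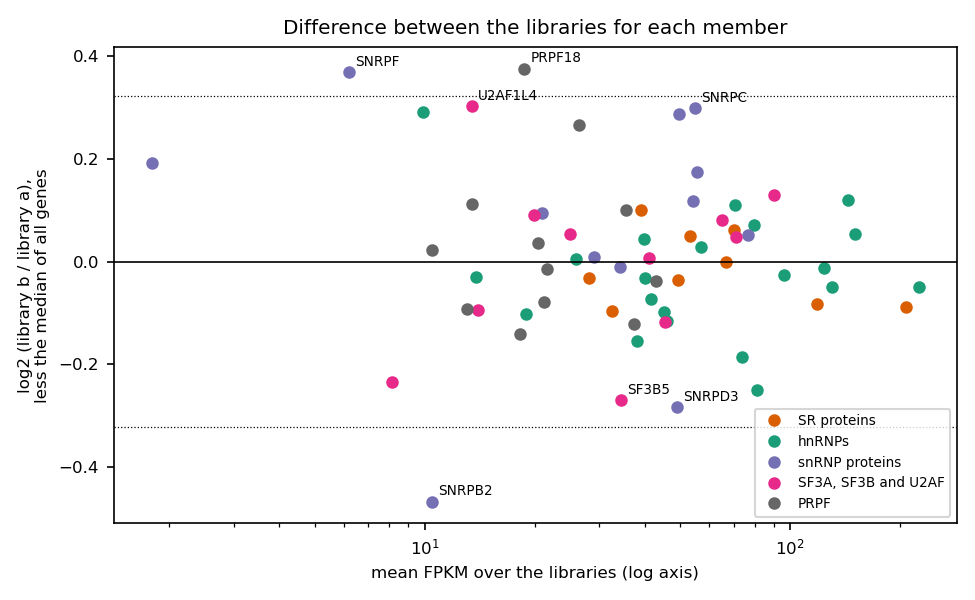
Log2 ratio of library b over library a, less the median of all genes, against mean FPKM on a log axis, with 1 point for each of 65 members coloured by class. Dotted lines mark a 25% difference, and only SNRPB2, SNRPF and PRPF18, all under FPKM 20, lie beyond them.

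Promoter windows of 300 bases (250 before to 50 after the start) were found in RefSeq for 58 of the 66 members, and for genes with several starts the first listed was used. The windows were searched on both strands for 8 short motifs, none of which contains another, in 5 classes, so 40 shares were looked at and no test was made. CCGGAAG (ETS) was present in 7 of 11 snRNP and 6 of 10 SF3A, SF3B and U2AF windows, against 3 of 20 hnRNP, 2 of 8 SR and 2 of 9 PRPF windows. Over all members it was present in 20 of 58 windows (34.5%). It was present in 19.5% of the windows of 9936 measured genes and in 10.7% of all 27305 windows. The snRNP genes with it were SNRPB, SNRPE, SNRPG, SNRPD2, SNRPA1, SNRPB2 and SNRPC, and the others SF3A1, SF3A2, SF3A3, SF3B2, SF3B4 and U2AF2. They include high and low genes, and members with and without the letters had median levels of 36.2 and 44.1.

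CCAAT (NF-Y) was present in 25 of 58 member windows (43.1%), against 36.8% of measured genes and 35.7% of all windows. By class, 13 of 20 hnRNP and 6 of 9 PRPF windows held it. So did 1 of 8 SR windows (SRSF3) and 1 of 10 SF3A, SF3B and U2AF windows (SF3B5). The 4 of 11 snRNP windows with it (36.4%) were near the share of measured genes. With 8 to 20 windows per class, a few genes set these shares. CACGTG, the E-box, was present in 7 of 20 hnRNP windows (HNRNPA3, HNRNPD, HNRNPDL, HNRNPH2, HNRNPH3, HNRNPM and HNRNPUL1) and in 1 window of the other classes (SF3B1). Its share over all members was 13.8%, against 10.03% of measured genes and 7.43% of all windows.

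TATAAA was present in 6 members, SRSF3, SRSF11, HNRNPAB, HNRNPC, HNRNPD and SNRPC, or 10.3%, against 5.58% of measured genes and 11.95% of all windows. In SRSF3 and HNRNPAB, printed above, it stands in the last part of the printed bases, just before the start. GCATGCG, the core of the NRF1 site, was present in U2AF1, U2AF1L4 and SF3A2 (5.17% of members, 6.47% of measured genes, 4.13% of all windows). The other motifs were GGGCGG (SP1) in 63.8% of members, 69.7% of measured genes and 44.6% of all windows, GATGGCG (YY1) in 10.3%, 7.73% and 4.35%, and TGACGTC (CREB) in 5.17%, 5.66% and 3.63%. The members with the CREB letters were SRSF1, U2AF1 and PRPF31. Windows of members had a median GC content of 61.8%, against 65.0% for measured genes, and a median of 28 CpG dinucleotides, against 26. A match gives letters in a window, not a bound site.

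**Figure D4:**
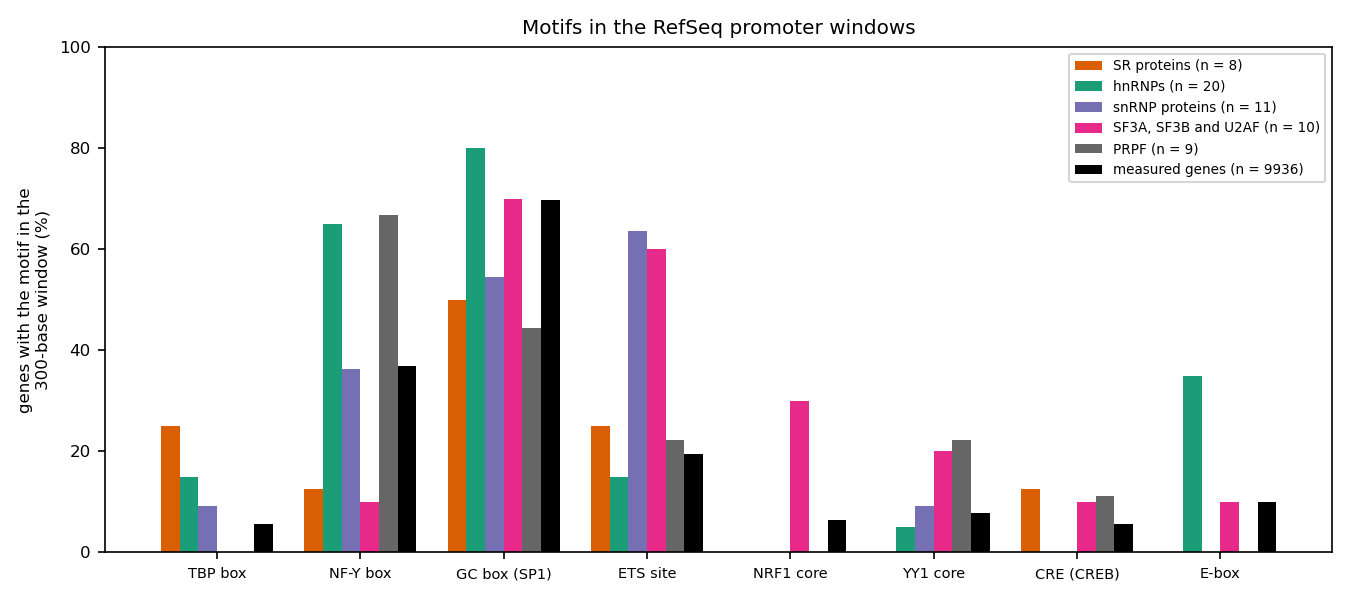
Share of genes (%) with each of 8 motifs in the 300-base RefSeq window, with a bar for each class and a black bar for the 9936 measured genes. TBP box stands for TATAAA and NF-Y box for CCAAT, and the ETS bars of the snRNP (63.6%) and SF3A, SF3B and U2AF genes (60%) stand above that of measured genes (19.5%).

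A coding gene that starts within 1000 bases on the opposite strand and runs the other way was found for 16 of the 58 members (27.6%), against 16.6% of 9888 measured coding genes. Of these neighbours 14 had a value, and in 10 pairs the member had the higher mean. Since 60 of the 66 members lay above the median gene, most would exceed a typical gene anywhere. The count of 10 is therefore not read as a trait of these pairs. HNRNPDL stood 23.0-fold above ENOPH1, an enzyme gene of methionine salvage (9.06 and 10.48). HNRNPA2B1 stood 2.49-fold above CBX3, the gene of heterochromatin protein HP1 gamma (52.29 and 51.90). HNRNPK was 7.31-fold above RMI1, SRSF11 6.33-fold above LRRC40 and SNRPD3 4.41-fold above GUCD1. The annotated spans of HNRNPK and RMI1, and of SNRPD3 and GUCD1, overlap, and whether reads were assigned by strand is unknown.

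In 4 pairs the neighbour had the higher mean, and the libraries of the partners did not overlap. PRPF31 (13.02 and 13.93) lay below TFPT (45.05 and 35.02), SF3A2 below PLEKHJ1 (18.06 and 22.14), SRSF9 below the dynein light chain gene DYNLL1 (46.08 and 55.50) and HNRNPH2 below GLA (27.41 and 26.03), which encodes alpha-galactosidase A. HNRNPUL2 and TTC9C (35.12 and 41.53) did overlap.

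**Figure D5:**
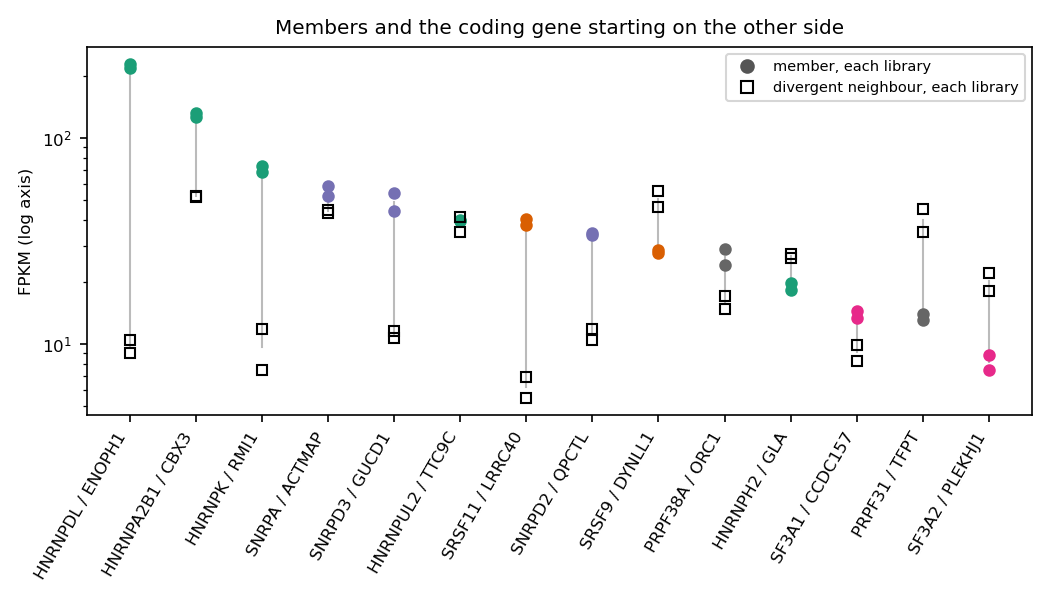
FPKM on a log axis for 14 members (filled circles, 1 per library, coloured by class) and the coding gene starting within 1000 bases in the opposite direction (open squares, 1 per library). Pairs are ordered by the level of the member, and the neighbour has the higher mean for PRPF31, SF3A2, SRSF9 and HNRNPH2.

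Other genes of the pathway, from 9 lists, had lower medians than the SR and hnRNP genes, and the values that follow are FPKM in library a and library b. Proteins of U1, U5 and the tri-snRNP under other symbols had a median of 26.4 ± 0.0919 over 15 of 15 genes, 9 of them above 2 times the median gene, with LUC7L3 at 57.60 and 57.27, the helicase gene DDX23 at 35.99 and 34.65 and TXNL4A at 13.58 and 14.44. SNRNP70 (U1-70K) was at 33.09 and 32.72, below SNRPA and SNRPC in both libraries. SR-related proteins and SR kinases had a median of 25.2 ± 0.651 (10 of 17 above 2 times the median gene), led by CLK1, a kinase of SR proteins, at 72.97 and 72.66 and PNN at 73.51 and 67.63, and lowest for SRPK1 at 9.81 and 11.55. Proteins of the hnRNP group with other names had a median of 27.1 ± 1.75 over 10 of 11 genes, 5 above that level, with PCBP1 at 114.78 and 119.56 and PTBP3 at 10.35 and 9.55. Among all genes 23.1% exceeded 2 times the median gene.

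The LSM genes, whose products form Sm-like rings, not all of them spliceosomal, had a median of 21.6 ± 2.17 over 10 genes. Of these, 4 were above 2 times the median gene. LSM1 was at 49.67 and 59.12, LSM5 at 27.97 and 30.80 and LSM11, of the U7 snRNP, at 3.93 and 3.37. Genes of snRNP assembly had a median of 19.1 ± 1.223 over 11 of 13, 3 above that level, with PRMT5 at 28.31 and 28.16, GEMIN7 at 28.85 and 26.91 and GEMIN5 at 8.96 and 9. The Prp19 complex list had 15.8 ± 1.29 over 15 of 16, 3 above it, with BUD31 at 48.69 and 47.42, BCAS2 at 33.80 and 32.97 and ISY1 at 6.46 and 5.68. U2-associated proteins had 14.0 ± 0.156 over 11, 4 above it, with DHX15 at 49.84 and 51.33, SF1 at 37.92 and 35.71 and HTATSF1 at 10.19 and 8.28. Against 23.1% of all genes, the shares above 2 times the median gene were 20% for the Prp19 list and 27.3% for snRNP assembly. They were 36.4% for U2-associated and 40% for LSM genes. In lists this short, none of these shares is far from that of all genes.

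Genes of the minor spliceosome, which removes a rare class of introns, stood near the median gene, at 10.5 ± 0.633 over 8 genes with 0 above 2 times it. SNRNP25 was highest at 21.15 and 23.94, SNRNP35 at 15.59 and 13.48 and ZCRB1 lowest at 5.74 and 8.19. Of 19 splicing regulators known for restricted tissues, 8 had a value, with a median of 10.9 ± 1.11 and 0 above 2 times the median gene. Among all genes 23.1% exceeded that level, so a count of 0 in 8 genes says little for either list. MBNL1 (23.18 and 19.73) and RBFOX2 (17.95 in both libraries) were highest and CELF3 lowest at 4.45 and 3.42. The epithelial regulator ESRP1 had no value, and its relative ESRP2 stood at 12.28 and 10.15.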

How the data were processed

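GRO-seq of untreated BJ cells was analysed as deposited. Per the labels' protocols, the nuclear run-on lasted 5 min at 30 °C, and there were 2 biological replicates. The values are FPKM made by the authors; Bowtie2, HTSeq and hg19 are named, without versions, in the submitters' processing notes. The gene length, read total, use of strand and treatment of reads with several positions were not given in the sources used here. No value was 0 (lowest 0.29 and 0.27), so a gene without a value is described only as having none. Depth is unknown, and no interval or floor is given.

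Identifiers were paired with symbols through an Ensembl name table (12202 of 12353 matched). Members were taken by symbol and classed by prefix. Level is the mean FPKM of both libraries, class level the median over members, and class error the SD of the single-library medians. Log2 values use a pseudocount of 0.1, and library differences are centred on the median of all genes. Since there is 1 group of 2 libraries, no p-value was computed. Pseudogenes, overlapping spans and promoter windows came from RefSeq (GRCh38.p14). Small RNA genes lie within the annotated spans of 9 members: SRSF2, HNRNPK, HNRNPU, SNRPB, SNRPN, SF3B1, SF3B2, SF3B3 and PRPF39. What they do to the values was not tested. On simulated data, a median over randomly drawn genes recovered a shift that had been set. The classes themselves were not simulated. Python 3.11.15, pandas 2.3.3 and numpy 2.4.6 were used.

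The members, classes and lists were chosen with earlier results of these data known. Values per library are given for all snRNP, SF3A, SF3B and U2AF genes, the 4 highest and 2 lowest SR, hnRNP and PRPF genes, the pairs of related genes and the 5 largest library differences, with the 2 highest and the lowest gene of each pathway list; other genes were named after their values were seen, as were the promoter motifs and the definition of members with copies or overlaps (at least 5 named pseudogenes, an overlapping coding gene, SNRPN or HNRNPA1L2). Alternatives were each library alone, a minimum FPKM of 1, geometric means, members without copies or overlaps, pseudocounts of 0 and 1, and quantile normalization. The values of 1 member, its pair and 1 gene of the pathway lists are not reported here, but these genes stay in all counts and medians.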

Additional observations from a re-analysis of the deposited data

How the results depend on the processing

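The order of the classes (hnRNP, SR, snRNP, SF3A with SF3B and U2AF, PRPF) was the same in each library alone, with a minimum FPKM of 1 and after quantile normalization. PRPF was lowest under every alternative run. With geometric means, SR proteins (60.5) exceeded hnRNPs (55.9), a log2 difference of 0.11, and snRNP proteins (25.5) fell below the SF3A, SF3B and U2AF genes, by -0.25, while PRPF stood at 20.9. Other log2 differences then were 1.24 (SR less snRNP), 0.99 (SR less SF3A, SF3B and U2AF), 1.53 (SR less PRPF), 1.13 (hnRNP less snRNP), 1.41 (hnRNP less PRPF) and 0.29 (snRNP less PRPF). The snRNP geometric mean takes in SNRPN and SNRPF.

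Without the 25 members with copies or overlaps (5 SR, 11 hnRNP, 7 snRNP, 10 SF3A, SF3B and U2AF and 8 PRPF genes left), medians were 66.9 for SR, 41.5 for hnRNP, 29.0 for snRNP and 20.8 for PRPF genes. Log2 differences were 0.69 (SR less hnRNP), 1.202 (SR less snRNP), 1.68 (SR less PRPF), 0.52 (hnRNP less snRNP), 0.14 (hnRNP less SF3A, SF3B and U2AF), 0.99 (hnRNP less PRPF), -0.37 (snRNP less SF3A, SF3B and U2AF) and 0.48 (snRNP less PRPF). The cause was not tested beyond fewer genes entering. With a pseudocount of 1, SR less PRPF was 1.34 and hnRNP less PRPF 1.43.

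With 1 library left out, the snRNP median ranged from 38.9 to 39.8, SR less snRNP from 0.41 to 0.48, hnRNP less snRNP from 0.52 to 0.56, snRNP less SF3A, SF3B and U2AF from 0.065 to 0.32 and snRNP less PRPF from 0.90 to 0.95. The number of members more than 25% apart was 3 under each alternative, and that of members lower in library b went from 33 to 36 without centring and 38 after quantile normalization. No paired analysis was possible because there is 1 group. Unknown depth limits all values.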
